A study of Homo sapiens with 6 samples.

Results

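The transcription factor NRF2, encoded by NFE2L2, its sensor KEAP1 and 8 genes of the antioxidant response that NRF2 drives were examined in EGFR-mutant lung adenocarcinoma cells treated with an EGFR inhibitor. The 10 genes, NFE2L2, KEAP1, GCLC, GCLM, TXNRD1, SRXN1, HMOX1, OSGIN1, GPX2 and FTH1, were taken by symbol from the 28395 genes of the table, and all 10 were found and had enough signal to be tested. HCC827 is an established lung adenocarcinoma line with a deletion in EGFR that keeps the kinase active. The cells were exposed for 24 h to the solvent DMSO (3 libraries) or to 1 μM of the EGFR kinase inhibitor erlotinib (3 libraries). The design is 1 cell line at 1 dose and 1 time. Nothing in the labels says whether the 3 libraries of a group came from separate cultures, so the p-values measure the spread between these libraries. The DMSO libraries held 20858083, 24641819 and 21172884 reads on genes, and the erlotinib libraries, numbered 4 to 6, held 21944007, 20760204 and 21678395. Values are given as signal, the reads of a gene divided by the size factor of its library.

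In resting cells KEAP1 bridges NRF2 to a ubiquitin ligase built on CUL3, so that NRF2 is made and destroyed continuously. Oxidants and electrophiles modify cysteines of KEAP1, NRF2 escapes and enters the nucleus, and with a small MAF protein it binds the antioxidant response element of genes for glutathione synthesis, thioredoxin reduction, quinone detoxification, NADPH supply and iron storage. BACH1 pairs with the same small MAF proteins and represses several of these genes until heme releases it. Much of the control of NRF2 is therefore on the protein, which was not measured here. The KEAP1-NRF2 pathway is often mutated in lung cancer.

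The epithelial identity of the line was visible in the libraries. EPCAM stood at 9852 ± 235 in DMSO and at 9485 ± 281 after erlotinib (SD, n = 3 each). The 8 epithelial markers summed to 268576 to 302261 in DMSO and to 216437 to 222140 with erlotinib, with the keratin KRT7 the most abundant in both groups. The list did not move as one, since the keratins KRT7, KRT8, KRT18 and KRT19 were lower, MUC1 was 7.07-fold higher and CLDN4 1.90-fold higher, and EPCAM and CDH1 did not pass. The 5 leukocyte markers summed to between 6.50 and 36.4 in each library, and CD14 had at most 26 reads in any of them. The 5 fibroblast markers summed to 71.5, 71.5 and 102.7 in DMSO and to 251.0, 212.8 and 196.6 with erlotinib, nearly all of it COL1A1, while COL1A2, COL3A1 and DCN had at most 3 reads in every library. The 3 endothelial markers summed to 15.8 to 34.0 in DMSO, where PECAM1 was the most abundant, and to 42.6 to 58.1 with erlotinib, where VWF was. VWF rose from 3.94 ± 3.31 to 27.4 ± 6.93 (adjusted p = 6.6e-04, limma), and PECAM1 was 15.7 ± 3.30 and 10.4 ± 2.20 (SD, n = 3 each) and did not pass. The DMSO mean of VWF was under the mean signal of 10 required for testing, so VWF entered the test only through its erlotinib libraries. The part of these markers in the results was not tested, and in bulk RNA fewer cells of a type and less RNA per cell cannot be told apart.

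With erlotinib the NRF2 genes split. The iron and heme genes FTH1 and HMOX1 and the glutathione peroxidase GPX2 rose, GCLM, SRXN1 and OSGIN1 fell, and the transcript of NRF2 itself rose slightly. No change of KEAP1, GCLC or TXNRD1 passed the test. At an adjusted p-value under 0.05 (limma on log2(signal + 1), Benjamini-Hochberg over 14215 genes), 4 of the 10 genes were higher and 3 were lower. Erlotinib moved most of the transcriptome in the same fit, in which 70.7% of the tested genes passed, 35.3% as higher and 35.4% as lower. The share of the 10 genes that passed is thus close to that of all genes, and the results below concern the direction and size of each gene's change. The libraries of the 2 groups did not overlap for 6 of the 10 genes, against 73.6% of all tested genes. The median log2 fold change was 0.07 over the 10 genes and 0.02 over all tested genes.

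The element that NRF2 binds has the core TGACNNNGC, where N is any base. It was searched on both strands in the RefSeq promoter windows of GRCh38.p14, which run from 250 bases before to 50 after a transcript start. Windows were matched for 8 of the 10 genes, all but HMOX1 and FTH1, and 4 of the 8 held the core (GCLM, GPX2, TXNRD1 and KEAP1) in at least 1 window. Counted the same way, 19.3% of the 11130 tested genes with a window held it, and of all 34796 single windows 13.3% did. The matches are shown with 10 bases on either side, on the strand of the gene, because they let the genes with the core be set beside how their transcripts moved. Capitals mark the core, which begins with GC and ends with GTCA where it lies on the strand opposite to the gene.
GCLM, 34 bases before the start (chr1:93909446-93909474, minus strand): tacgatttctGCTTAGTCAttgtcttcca
GPX2, 122 bases before the start (chr14:64942849-64942877, minus strand): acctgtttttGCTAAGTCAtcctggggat
TXNRD1, 99 bases before its upstream start (chr12:104215670-104215698, plus strand): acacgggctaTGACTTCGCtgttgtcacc
TXNRD1, across its upstream start (chr12:104215761-104215789, plus strand): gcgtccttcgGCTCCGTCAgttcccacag
TXNRD1, 102 bases before its downstream start (chr12:104286920-104286948, plus strand): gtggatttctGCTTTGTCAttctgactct
KEAP1, 54 bases before its downstream start (chr19:10502807-10502835, minus strand): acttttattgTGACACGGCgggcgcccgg
KEAP1, 31 bases before the same start (chr19:10502784-10502812, minus strand): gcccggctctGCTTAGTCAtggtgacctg
The reverse match of GCLM and the second match of KEAP1 carry the same letters, TGACTAAGC. Of these 4 genes, GCLM was lower with erlotinib, GPX2 was higher and TXNRD1 and KEAP1 were neither. The windows of NFE2L2, GCLC, SRXN1 and OSGIN1 did not hold these letters. Across all tested genes with a window, 34.7% of the 2147 with the core were higher and 37.4% lower, and of the 8983 without it 35.1% were higher and 36.5% lower. In the wider pathway list described further on, 7 of the 21 tested genes with the core were higher and 11 lower, and 30 of the 59 without it were higher and 17 lower, a description with no test.

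NFE2L2 (Entrez gene 4780, chromosome 2, 177230303 to 177264727, GRCh38 as for all positions) measured 3817, 4686 and 3987 in the DMSO libraries and 4673, 5133 and 5034 in the erlotinib libraries. The groups overlapped by a narrow margin, since DMSO library 2 was just above erlotinib library 4. NFE2L2 was 1.19-fold higher with erlotinib, a log2 fold change (LFC) of 0.25 ± 0.08 (SE; adjusted p = 0.0056, limma). Scaled to the total count of each library it was 0.43, and in that scaling the median of all genes moved from 0.02 to 0.19 and KEAP1 (0.20), GCLC (0.25) and TXNRD1 (0.26) also passed as higher.

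KEAP1 (Entrez gene 9817, chromosome 19, 10486125 to 10503356) had a signal of 3717, 3052 and 3456 in DMSO and of 3232, 3728 and 3361 with erlotinib. The libraries of both groups were interleaved. Its LFC was 0.02 ± 0.08 (SE; adjusted p = 0.867, limma) and turned to -0.06 without DMSO library 2 and to -0.04 without erlotinib library 5. The ratio of NFE2L2 to KEAP1 within a library, which does not depend on how libraries are scaled, was 1.027, 1.535 and 1.154 in DMSO and 1.446, 1.377 and 1.498 with erlotinib (two-sided exact permutation p = 0.40, where 0.10 is the smallest p that 3 against 3 libraries allow). Of 5 such ratios computed, the other 4 reached that p, or 0.125 after Benjamini-Hochberg adjustment over the 5.

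**Figure D1:**
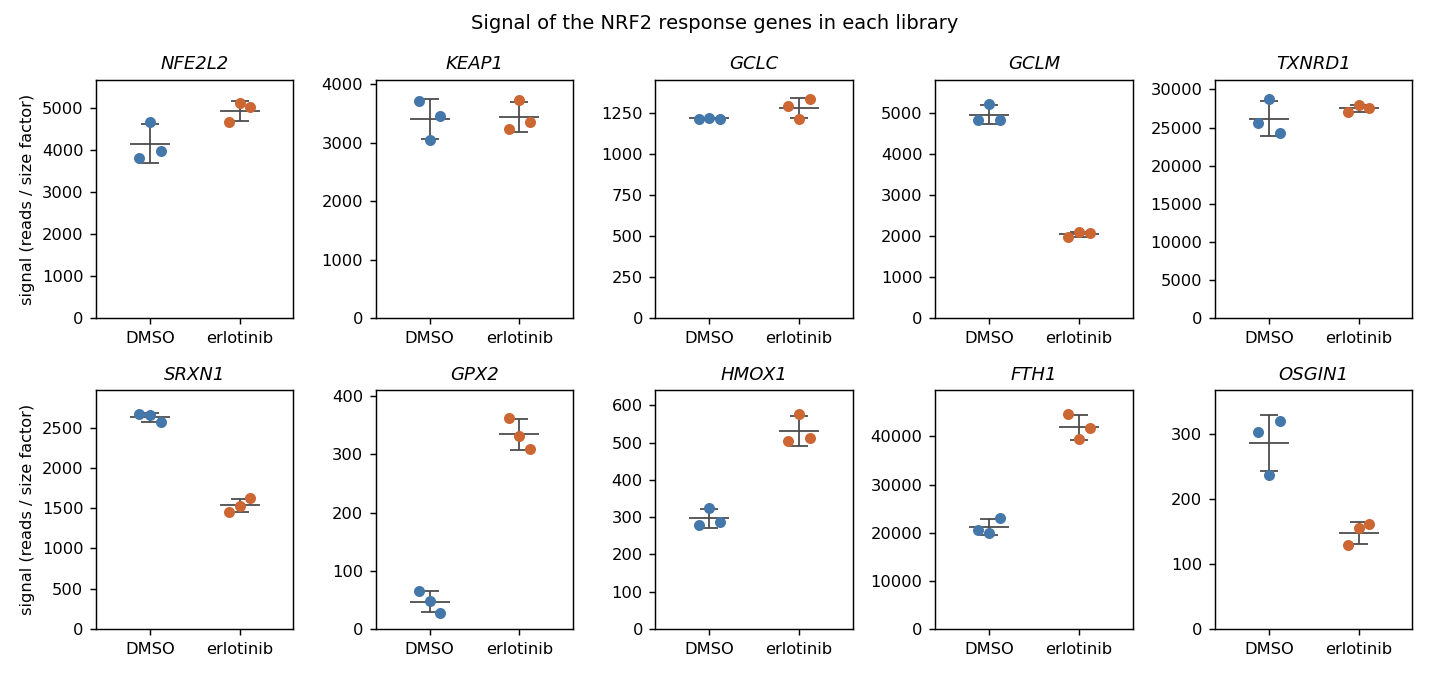
Signal (reads divided by the size factor) of each of the 10 genes in the 3 DMSO libraries (blue) and the 3 erlotinib libraries (orange), with the mean and SD as bars and each vertical axis starting at 0. GCLM, SRXN1 and OSGIN1 sit lower with erlotinib and GPX2, HMOX1 and FTH1 higher, each without overlap, while KEAP1, GCLC, TXNRD1 and NFE2L2 overlap between the groups.

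Glutamate-cysteine ligase makes the first and rate-limiting step of glutathione synthesis, with GCLC as its catalytic and GCLM as its modifier subunit. GCLM (Entrez gene 2730, chromosome 1, 93885199 to 93909430) fell from 4848, 5227 and 4838 in DMSO to 1978, 2096 and 2068 with erlotinib. Every erlotinib library was below every DMSO library by a wide gap. GCLM was 2.43-fold lower with erlotinib (LFC -1.28 ± 0.07, SE; adjusted p = 6.3e-13, limma).

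GCLC (Entrez gene 2729, chromosome 6, 53497341 to 53545101) had a signal of 1216, 1222 and 1215 in DMSO and of 1290, 1215 and 1332 with erlotinib. The DMSO libraries lay very close together, and 1 erlotinib library was level with them. The LFC of GCLC was 0.07 ± 0.08 (SE; adjusted p = 0.436, limma). The ratio of GCLC to GCLM was 0.245 ± 0.00990 in DMSO and 0.626 ± 0.0398 in the erlotinib libraries (SD, n = 3 each), without overlap (exact permutation p = 0.10, the smallest possible). The transcript ratio was thus higher in each erlotinib library than in any DMSO library.

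TXNRD1, the cytosolic thioredoxin reductase, returns thioredoxin to its reduced form with electrons from NADPH, and SRXN1, sulfiredoxin, repairs over-oxidized peroxiredoxins. TXNRD1 (Entrez gene 7296, chromosome 12, 104215779 to 104350307) had a signal of 25547, 28713 and 24265 in DMSO and of 27028, 27988 and 27535 with erlotinib. DMSO library 2 was above and the other DMSO libraries were below all erlotinib libraries. TXNRD1 had an LFC of 0.08 ± 0.07 (SE; adjusted p = 0.331, limma). Without DMSO library 2 it was 0.14 and passed the test (adjusted p = 0.0107, limma), and over all alternatives the adjusted p lay between 0.0018 (scaled to the total count) and 0.792.

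SRXN1 (Entrez gene 140809, chromosome 20, 646615 to 653200) fell from 2662, 2652 and 2564 in DMSO to 1454, 1527 and 1622 with erlotinib, with a clear gap between the groups. SRXN1 was 1.71-fold lower (LFC -0.78 ± 0.07, SE; adjusted p = 5.8e-09, limma). The ratio of TXNRD1 to SRXN1 was 9.96 ± 0.752 in DMSO and 18.0 ± 0.866 in the erlotinib libraries (SD, n = 3 each), without overlap (exact permutation p = 0.10, the smallest possible).

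GPX2, a selenium-containing glutathione peroxidase of epithelia, had the largest change of the 10 genes. GPX2 (Entrez gene 2877, chromosome 14, 64939158 to 64942745) rose from 64.7, 48.3 and 27.8 in DMSO to 363, 332 and 310 with erlotinib. The DMSO libraries varied widely among themselves, but every one was far below the erlotinib libraries. On the log2(signal + 1) scale GPX2 was 7.39-fold higher with erlotinib (LFC 2.88 ± 0.24, SE; adjusted p = 7.1e-10, limma), and 97.7% of the tested genes had a lower log2 fold change. With only 26 reads in the lowest library the value depends on the pseudocount, and it was 2.65 with a pseudocount of 10.

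HMOX1, heme oxygenase, opens heme and frees its iron, and FTH1 is the heavy subunit of ferritin, the shell that stores iron. HMOX1 (Entrez gene 3162, chromosome 22, 35381096 to 35394207) rose from 278, 325 and 286 in DMSO to 504, 577 and 512 with erlotinib. The highest DMSO library was well below the lowest erlotinib library. HMOX1 was 1.79-fold higher (LFC 0.84 ± 0.12, SE; adjusted p = 1.8e-06, limma).

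FTH1 (Entrez gene 2495, chromosome 11, 61964285 to 61967634) rose from 20543, 19877 and 23075 in DMSO to 44627, 39440 and 41689 with erlotinib. All erlotinib libraries were far above the DMSO libraries. FTH1 was 1.98-fold higher (LFC 0.99 ± 0.07, SE; adjusted p = 9.1e-11, limma). The sequence of FTH1 has 11 partial copies elsewhere on the primary chromosomes (at least 50% of the transcript at an identity of at least 90%), and since reads that fit several places equally were not counted, its level is uncertain. The other 9 genes had no such copy. Of the genes that overlap the 10 and have values, none came near its partner. The highest were EID3, with a mean signal of 14.5 beside 26846 for TXNRD1, and BEST1, with 10.8 beside 31542 for FTH1. The overlapping GCLC-AS1, TXNRD1-AS1 and RPL18AP3, and a noncoding gene each at SRXN1 and FTH1, had no value and could not be compared.

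OSGIN1 encodes an oxidative stress-induced inhibitor of growth. OSGIN1 (Entrez gene 29948, chromosome 16, 83953240 to 83966332) fell from 303, 238 and 320 in DMSO to 129, 155 and 161 with erlotinib. The lowest DMSO library remained above every erlotinib library. OSGIN1 was 1.92-fold lower (LFC -0.94 ± 0.16, SE; adjusted p = 2.2e-05, limma).

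Levels of different genes were compared as mean signal per kb of the MANE Select transcript. Reads were not split over introns in the alignment, and the share lost this way can differ between genes, so the order is approximate. In DMSO the order was led by FTH1 (17594 ± 1402 per kb), TXNRD1 (6781 ± 593), NFE2L2 (1702 ± 188) and KEAP1 (1329 ± 131; SD, n = 3 each). SRXN1 (1039 ± 21.3) and GCLM (1018 ± 45.4) followed and differed by less than their spread. GCLC (322 ± 1.04), HMOX1 (191 ± 16.2), OSGIN1 (149 ± 22.6) and GPX2 (50.9 ± 20.02) were the least abundant. With erlotinib the order of the first 6 was the same, with GCLM at 419 ± 12.6. GPX2 (363 ± 28.8), HMOX1 (342 ± 25.8) and GCLC (338 ± 15.7) then did not differ beyond their spread, and OSGIN1 (77.3 ± 8.84) was lowest.

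**Figure D2:**
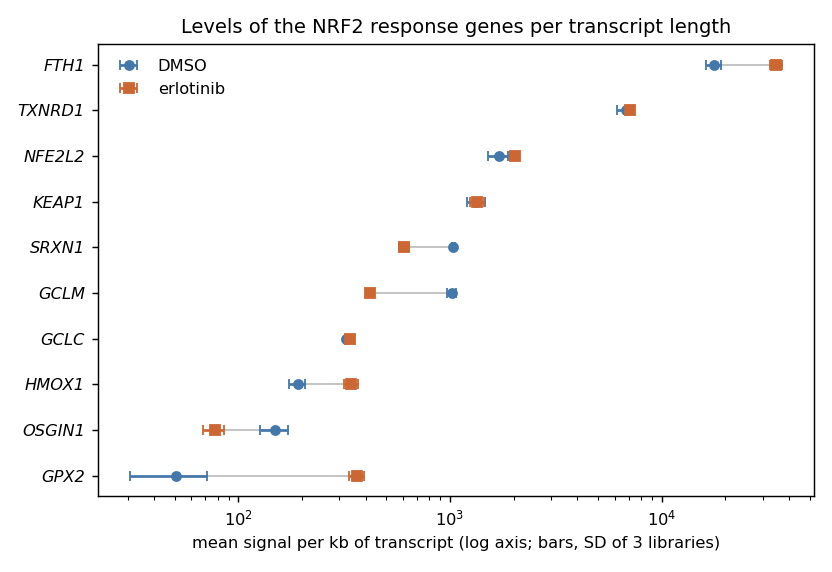
Mean signal per kb of transcript (horizontal log axis) of the 10 genes in DMSO (blue circles) and with erlotinib (orange squares), with the SD of 3 libraries as bars. FTH1 leads at 17594 in DMSO and 34845 with erlotinib, and GPX2 moves from the lowest place, 50.9, to 363.

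Of NRF2 and 7 partners and competitors, 5 were higher and 2 lower, against 35.3% and 35.4% of all tested genes. BACH1, the repressor, rose from 1723, 1794 and 1588 in DMSO to 2877, 2776 and 2634 with erlotinib without overlap, an LFC of 0.70 ± 0.07 (SE; adjusted p = 3.7e-08, limma). The ratio of NFE2L2 to BACH1 was 2.44 ± 0.206 in DMSO and 1.79 ± 0.151 after erlotinib (SD, n = 3 each), again without overlap (exact permutation p = 0.10, the smallest possible). BACH2, a related repressor with a lower signal, rose from 96.3 ± 17.2 to 256 ± 25.6 (SD, n = 3 each; adjusted p = 3.3e-07, limma). Of the small MAF partners, MAFF fell from 920 ± 95.8 to 422 ± 21.2 (SD, n = 3 each; adjusted p = 4.1e-09, limma), and MAFK had an LFC of -0.02 that did not pass. MAFG was higher by 0.23 on the log2 scale (adjusted p = 0.016, limma), but the call was lost without DMSO library 1 or 3 or erlotinib library 5 or 6 (adjusted p = 0.0551 to 0.0939, limma). The related factors NFE2L1, which drives proteasome genes, and NFE2L3 moved apart, NFE2L1 higher with an LFC of 0.37 (adjusted p = 3.2e-05) and NFE2L3 lower with an LFC of -0.37 (adjusted p = 0.000175, limma).

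Of 13 genes for the sensor and for degradation of NRF2 protein, 1 was higher, 6 were lower (46.2%, against 35.4% of all tested genes) and 6 were neither. With libraries scaled to their total count 4 were higher and 4 lower, beside 6156 higher and 3955 lower of all 14215 tested genes. CUL3, the scaffold of the KEAP1 ligase, fell by 0.55 on the log2 scale, and RBX1, its RING subunit, fell by 0.90 (adjusted p at most 1.6e-05, limma). CUL1, the scaffold of another ligase that can act on NRF2, fell by 0.92 (adjusted p = 2.6e-09, limma). The 1 gene that rose was SQSTM1, the autophagy receptor p62 that binds KEAP1, from 7312 ± 296 to 14297 ± 184 (SD, n = 3 each; LFC 0.97 ± 0.06, SE; adjusted p = 1.2e-11, limma).

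The wider list held 106 genes of the pathway in 9 roles, the 10 genes included. Of the 99 with enough signal, 41 were higher (41.4%), 36 lower (36.4%) and 22 neither, median LFC 0.06, near the 35.3% higher, 35.4% lower and median of 0.02 over all tested genes. Scaled to the total count, 49 were higher and 26 lower, beside 6156 and 3955 of all tested genes. The total-count figures of each role below are to be set beside these, since that scaling moved all genes upward. No gene of the list was called in the opposite direction by any alternative.

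The glutathione list held genes of synthesis and reduction together with genes of breakdown. Of its 10 genes 8 were lower (against 35.4% of all tested genes), 1 was higher and 1 was neither, median LFC -0.70 (6 lower and 2 higher when scaled to the total count). In a split made after the values were seen, 5 of the 6 genes for import, synthesis and reduction were lower, GCLM among them. Only 3 were lower when scaled to the total count, where 3955 of all 14215 tested genes were lower. Of the 4 breakdown genes 3 were lower and 1 was higher in both scalings. SLC7A11, which imports the cystine that limits glutathione synthesis, fell from 1222, 1237 and 1034 in DMSO to 635, 643 and 664 with erlotinib, without overlap (LFC -0.84 ± 0.09, SE; adjusted p = 6.5e-08, limma). Largest was the fall of CHAC2, which degrades glutathione, from 905 ± 66.4 to 120 ± 1.82 (SD, n = 3 each; LFC -2.90, adjusted p = 1.3e-14, limma). GGCT, an enzyme of the same degradation route, fell by 1.66. GSR, glutathione reductase, had an LFC of -0.29 (adjusted p = 0.0012, limma), which no longer passed when scaled to the total count (-0.11, adjusted p = 0.174). The gene that rose was GGT1, which cleaves extracellular glutathione, by 2.57 on the log2 scale from a signal of 45.5 ± 17.6 (SD, n = 3) in DMSO (adjusted p = 2.4e-09, limma), and 1 near-identical full copy of its transcript lies elsewhere in the genome.

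Of 15 glutathione peroxidases and transferases 14 were tested, with a median LFC of 0.72. Of these, 9 were higher (64.3%, against 35.3% of all tested genes), 2 lower and 3 neither. When scaled to the total count 10 were higher and 0 lower, with a median LFC of 0.89 beside 0.19 over all tested genes. GSTA4, which conjugates products of lipid peroxidation, rose by 3.42 on the log2 scale (adjusted p = 1.9e-05, limma). It went from 13.6, 14.9 and 1.07 in DMSO, 1 read in the last library, to 103.4, 65.3 and 83.3 with erlotinib. Without DMSO library 3 the rise was 2.46 on the log2 scale. The DMSO mean of GSTA4, 9.85, was just under the mean signal of 10 required for testing. It therefore entered the test, and the 9 higher genes, only through its erlotinib libraries. GSTM4, a transferase whose transcript has 2 partial copies elsewhere in the genome, rose by 1.68 from 17.8 ± 7.23 (SD, n = 3; adjusted p = 6.9e-04, limma). GSTK1 rose by 1.00 from a higher level, 637 ± 84.7, to 1271 ± 62.9 (SD, n = 3 each; adjusted p = 1.4e-08, limma).

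Of the 15 thioredoxin and peroxiredoxin genes 8 were lower (53.3%, against 35.4% of all tested genes), with 3 higher and 4 neither and a median LFC of -0.38 (6 lower and 4 higher when scaled to the total count). TXN, thioredoxin itself, fell from 1318, 1117 and 1242 to 468, 445 and 458, without overlap (LFC -1.42 ± 0.09, SE; adjusted p = 2.4e-11, limma). PRDX1, a peroxiredoxin that uses thioredoxin to remove peroxide, fell from 3677, 3880 and 3708 to 1834, 1781 and 1779 (LFC -1.06, adjusted p = 1.3e-11, limma). Both stood clear of their DMSO libraries, and partial copies of both transcripts lie elsewhere in the genome. SESN3, a sestrin, rose by 2.21 from a signal of 48.6 ± 5.31 (SD, n = 3; adjusted p = 1.8e-09, limma).

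Of 18 genes of quinone and carbonyl reduction, conjugation and export 13 were tested, and 8 were higher (61.5%, against 35.3% of all tested genes), 2 lower and 3 neither, median LFC 0.40. NQO1, the quinone reductase often read as a measure of NRF2 activity, rose from 8446, 9293 and 7837 in DMSO to 10562, 10485 and 10869 with erlotinib. The groups did not overlap, and the change was small (LFC 0.32 ± 0.07, SE; adjusted p = 2.4e-04, limma). ABCC3, an exporter of conjugates, rose from 2727 ± 183 to 9798 ± 246 (SD, n = 3 each; LFC 1.85, adjusted p = 1.7e-15, limma). EPHX1, microsomal epoxide hydrolase, rose by 1.22 (adjusted p = 2.6e-11, limma), and AKR1C3, one of several closely related aldo-keto reductases, by 2.53 from 20.6 ± 2.52 (SD, n = 3; adjusted p = 3.5e-08, limma). ABCC1 was listed at 0 in every library, and its whole transcript has 1 further copy on an alternate contig.

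Of the 6 enzymes that supply NADPH, 2 were higher and 4 lower (66.7%, against 35.4% of all tested genes, and 2 and 2 when scaled to the total count). ME1, cytosolic malic enzyme, fell by 0.70 on the log2 scale (adjusted p = 1.9e-06, limma). TKT, transketolase, rose by 0.74 and IDH1, cytosolic isocitrate dehydrogenase, by 0.49 (adjusted p at most 1.8e-06, limma).

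**Figure D3:**
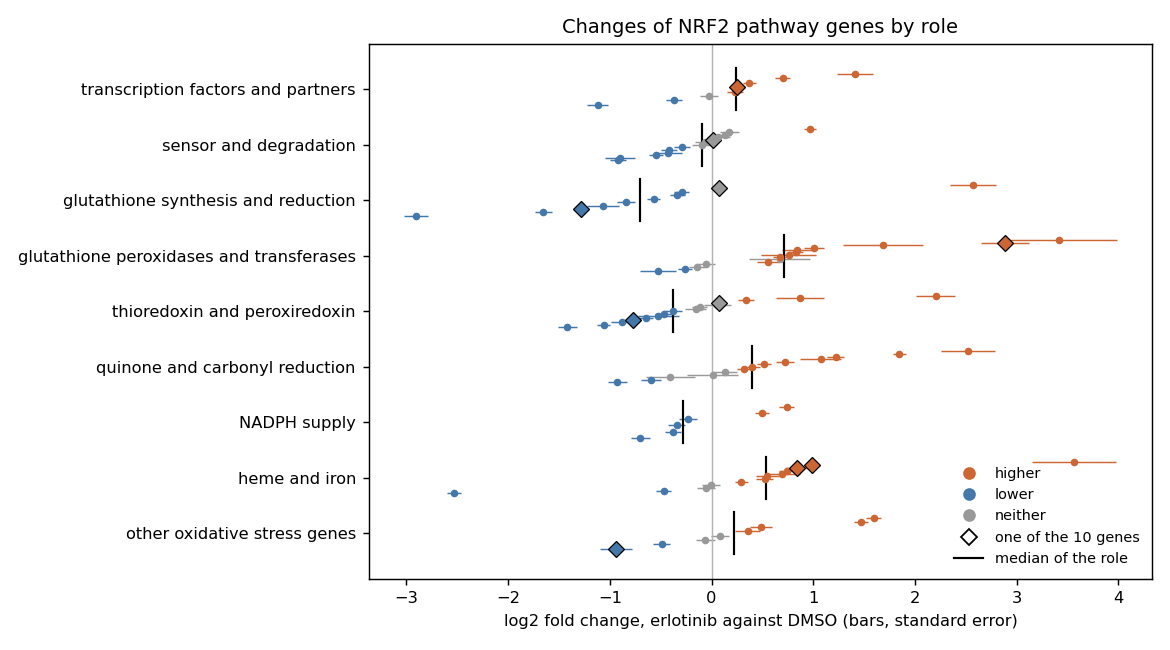
Log2 fold change of erlotinib against DMSO (horizontal axis, with its standard error as bars) for the 99 tested genes of the wider list by role, colored by the limma call. Diamonds mark the 10 genes and black lines the median of each role, which is lowest for glutathione synthesis and reduction, breakdown genes included (-0.70), and highest for glutathione peroxidases and transferases (0.72).

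Of 13 heme and iron genes 12 were tested, and 8 were higher (66.7%, against 35.3% of all tested genes), 2 lower and 2 neither, median LFC 0.54 (8 higher and 2 lower also when scaled to the total count). FTL, the light subunit of ferritin, rose with FTH1, from 5784, 5530 and 6633 in DMSO to 10957, 9214 and 9890 with erlotinib (LFC 0.74 ± 0.08, SE; adjusted p = 2.4e-08, limma), and 1 near-identical copy of its transcript lies elsewhere in the genome. The ratio of FTH1 to FTL was 3.54 ± 0.0583 in DMSO and 4.19 ± 0.106 in the erlotinib libraries (SD, n = 3 each), without overlap (exact permutation p = 0.10, the smallest possible). TFRC, the transferrin receptor that brings iron into the cell, fell from 26702, 30166 and 25874 to 4561.5, 4784.5 and 4962.1, a 5.77-fold fall and the largest of the role (LFC -2.53 ± 0.07, SE; adjusted p = 2.8e-17, limma). SLC40A1, the iron exporter ferroportin, rose from 6.81, 5.57 and 4.28 to 66.4, 104.9 and 61.8, with as few as 4 reads in a DMSO library. Its LFC was 3.56 ± 0.41 (SE, adjusted p = 1.4e-07, limma). The DMSO mean of SLC40A1, 5.55, was under the mean signal of 10 required for testing. It therefore entered the test, and the 8 higher genes, only through its erlotinib libraries. On the uptake side the iron importer SLC11A2, named after its values were seen, moved the other way from TFRC, from 974, 1139 and 942 to 1478, 1494 and 1404 (LFC 0.52 ± 0.09, SE; adjusted p = 1.7e-05, limma). HMOX2 was listed at 0 in every library, and a whole copy of its transcript lies on an alternate contig.

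**Figure D4:**
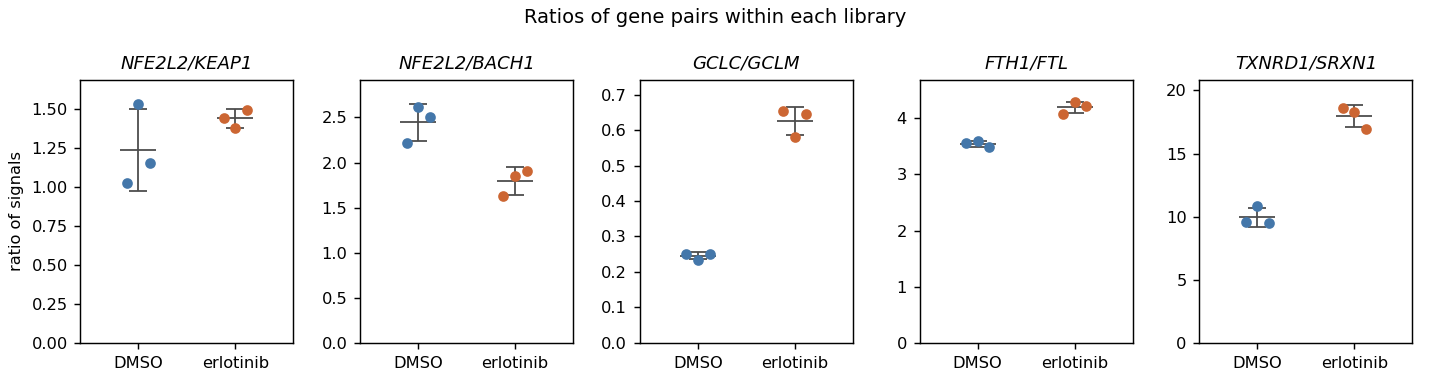
Ratio of the signals of 5 gene pairs within each library (vertical axes start at 0) in DMSO (blue) and with erlotinib (orange), with the mean and SD as bars. GCLC/GCLM, TXNRD1/SRXN1 and FTH1/FTL are higher and NFE2L2/BACH1 is lower with erlotinib without overlap, and NFE2L2/KEAP1 overlaps.

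Of the 8 other oxidative stress genes, 4 were higher and 2 lower, OSGIN1 among the latter, beside 35.3% higher and 35.4% lower of all tested genes. TXNIP, which binds and inhibits thioredoxin, rose from 3545 ± 370 to 10678 ± 461 (SD, n = 3 each; LFC 1.59, adjusted p = 7.0e-14, limma). The mitochondrial superoxide dismutase SOD2 rose by 1.47 on the log2 scale and the cytosolic SOD1 fell by 0.49 (adjusted p at most 1.9e-05, limma).

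Among the genes whose signal followed NFE2L2 most closely over the 6 libraries were HDAC9 (Pearson's r = 0.988) and RUFY2 (0.985), out of 11066 genes whose mean signal reached 100, as a description over libraries that share a treatment. They had small changes of the same kind, with LFCs of 0.27 and 0.29, and the latter did not pass (adjusted p = 0.0506, limma). A correlation this high was not rare, since 296 genes had an r above 0.9.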

How the data were processed

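The RNA of 6 libraries of HCC827 cells, 3 per group, was sequenced by the authors. Paired-end reads were aligned to GRCh38 by Bowtie2 2.3.4, which does not split reads over introns, and those with a unique place were assigned to genes by featureCounts 1.6.3. The strand that was counted is not given in the sources used here, and reads of overlapping antisense genes cannot be told apart. Each deposited signal value is a number of reads divided by 1 size factor per library (0.882 to 1.08), since 100% of the values were whole multiples of the library's step within 0.001 reads. All 6 columns were used, and the number of other per-sample columns was 0. Replicates differed by more than sampling noise (chi-square over its degrees of freedom 4.05 to 22.9, most between DMSO libraries 1 and 2).

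The test was limma 3.58.1 (R 4.3.3) with a variance trend on log2(signal + 1), for the 14215 genes whose mean signal reached 10, two-sided, adjusted by Benjamini-Hochberg at 0.05, and tested on simulated data. Alternatives were edgeR 4.0.16 and DESeq2 1.42.0 on the recovered reads, scaling to the total count or by TMM, pseudocounts of 0.1 and 10, no filter, a threshold of 0.01 and each library left out. Copies were searched by aligning GENCODE release 44 transcripts to the genome with minimap2 2.31-r1302 (near-identical, at least 90% covered at 97% identity). The genes and lists were chosen with earlier results of these data known. Beyond the 10 genes, those named are the 3 largest changes of each role that passed and a fixed set of pathway genes, and SLC11A2 was named after its values were seen. The 3 genes most correlated with NFE2L2 were also to be named. Some results of these rules are not reported here.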

Additional observations from a re-analysis of the deposited data

How the results depend on the processing

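Over the alternatives that used all libraries, 4 to 7 of the 10 genes were higher and 3 were lower. Scaling to the total count gave the 7, as KEAP1 (log2 fold change 0.20), GCLC (0.25) and TXNRD1 (0.26) then also passed, beside a median of all genes of 0.19 in that scaling. With each library left out in turn, 4 to 5 were higher and 3 lower, 4585 to 5094 of all genes higher and 4702 to 5096 lower, and 39 to 43 genes of the wider list higher and 34 to 39 lower. With a library left out, the log2 fold change of KEAP1 lay between -0.0617 (without DMSO library 2) and 0.0806 (without DMSO library 1), and it was -0.0436 without erlotinib library 5. On the recovered reads, edgeR called 5085 of all genes higher and 4941 lower, and DESeq2 called 4948 higher and 4933 lower. Scaling to the total count called 6156 higher and 3955 lower. NFE2L2, GCLM, SRXN1, HMOX1, OSGIN1, GPX2 and FTH1 kept their direction and call under all 14 alternatives, with NFE2L2 between 0.19 and 0.43 and an adjusted p of at most 0.0362. In the wider list, 24 of 99 genes changed their call under at least 1 alternative, most often under the scaling to the total count. No paired analysis was possible because the erlotinib columns are numbered 4 to 6 and carry none of the replicate numbers of the labels.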
